A study of Rattus norvegicus with 4 samples.

Results

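Podocytes are the epithelial cells that wrap the capillaries of the kidney's filter, the glomerulus, and the slit diaphragm is the protein junction between their interlocking foot processes. The genes described here are 7 podocyte genes, Nphs1, Kirrel1, Cd2ap, Ptpro, Podxl, Synpo and Wt1. Each gene was read from its brightest probe set, taken by the mean over the 4 arrays among those annotated with that symbol alone. This gave values for 6 of the 7 genes, of 14217 genes in all. Kirrel1 had no such probe set and is not analysed here.

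Kidneys came from male Wistar rats of 300 to 480 g. All 4 groups shared 29 min of warm ischaemia in the body after death and 3 h of cold machine perfusion with University of Wisconsin solution, an organ preservation fluid. The heparin kidneys were then perfused warm for 30 min with oxygenated Krebs-Henseleit buffer, a modified salt solution, and both perfusates held 10 IU/ml of low molecular weight heparin. The PPS kidneys had the same perfusions with 10 IU/ml of PPS, named in the labels by that abbreviation alone. The warm kidneys had both perfusions with no supplement, and the cold kidneys had the cold perfusion only. The warm perfusion was a buffer without blood, so it stands in for reperfusion only in part. Each group was 1 array, on which RNA of 3 kidneys was pooled in equal amounts. There is therefore no spread between replicates, and a difference between 2 arrays has no test.

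The slit diaphragm is built from nephrin, the product of Nphs1, and its relative Neph1, the product of Kirrel1. These are adhesion proteins whose tails pass signals to the actin skeleton of the foot process through adaptors such as the product of Cd2ap. Ptpro and Podxl encode membrane proteins of the podocyte's free surface, Synpo encodes an actin-binding protein of the foot process, and Wt1 encodes a transcription factor that mature podocytes keep expressing. In people, inherited loss of several of these proteins leads to protein in the urine.

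Levels are given on the log2 scale for each probe set, as the authors deposited them. All 6 genes were above the floor of 4.51, the median of all values on the 4 arrays, on every array. The presence of podocyte RNA was read from these 6 genes, of which Cd2ap and Podxl are also made by other cell types. The arrays hold whole-kidney RNA, in which fewer podocytes and less RNA per podocyte cannot be told apart.

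All 6 genes were lowest on the cold array, as were 29.1% of the 9166 genes above the floor on every array. Of the 6, 5 were also highest on the warm array, and 12.9% of the 9166 genes were both. Nphs1 and Wt1 differed by 2-fold or more between warm and cold kidneys, and Synpo came close to that size. The 5 genes highest on the warm array had heparin and PPS values between warm and cold, which follows from that order. Podxl was at its highest on the PPS array, and its heparin value lay between warm and cold.

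**Figure D1:**
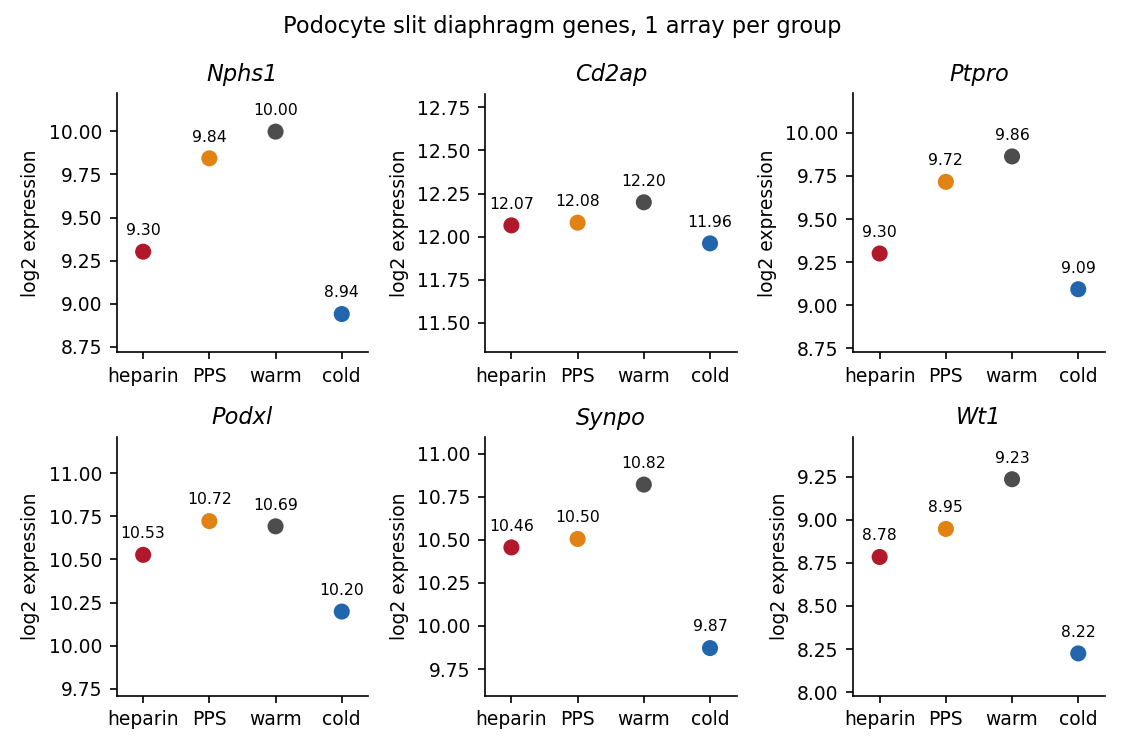
The log2 expression value (y axis) of each of the 6 genes on the heparin, PPS, warm and cold array (x axis), with 1 point per array of pooled RNA and no error because there were no replicates. Each panel spans the same log2 distance, and the cold point is the lowest in every panel.

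Nphs1 encodes nephrin, the adhesion molecule that spans the slit. Its probe set, 1369153_at, read 9.30 on the heparin array, 9.84 on the PPS array, 10.00 on the warm array and 8.94 on the cold array. The warm and PPS values stood together at the top and the heparin value lay nearer to the cold one. The log2 difference was 1.06 for warm minus cold, which is 2.08-fold.

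Nphs1 also showed the largest gap between the supplements among the 6 genes. The difference was -0.70 for heparin minus warm and -0.54 for heparin minus PPS, against -0.15 for PPS minus warm. Of all 9393 genes that passed the floor on 1 array or more, 1.67% had a lower heparin minus PPS value.

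A further Nphs1 probe set, 1369154_at, was dimmer and gave other differences. It read 5.41 on the heparin array, 5.78 on the PPS array, 5.41 on the warm array and 5.28 on the cold array. By this probe set nephrin mRNA was highest with PPS, and the warm minus cold difference was 0.13. PPS minus warm was 0.38, the opposite sign to the brighter probe set, and heparin minus PPS was -0.38, the same sign. The 2-fold difference of Nphs1 thus rests on 1 probe set.

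Wt1 encodes a zinc finger transcription factor required for podocyte differentiation. Probe set 1377223_at read 8.78 on the heparin array, 8.95 on the PPS array, 9.23 on the warm array and 8.22 on the cold array. The warm value stood alone at the top and the cold value alone at the bottom. Warm minus cold was 1.01, or 2.01-fold, just past the size limit, and heparin minus warm was -0.45. The other Wt1 probe set, 1369695_at, was at the lowest value of the arrays, 2.11, on all 4 and gives no check.

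The promoters of 4 of the genes are shown because Nphs1 and Wt1 passed the size limit, Podxl was the gene highest with PPS, and Cd2ap differed least. Each line gives the 250 bases before the gene's start in RefSeq's annotation of the rat assembly GRCr8, in the gene's own direction. The windows lie at chr1:94848011-94848260 (plus strand) for Nphs1, chr3:112021759-112022008 (plus strand) for Wt1, chr4:61149132-61149381 (minus strand) for Podxl and chr9:25583725-25583974 (plus strand) for Cd2ap. Capitals mark letters that match a motif named in the next paragraph, on either strand.
Nphs1: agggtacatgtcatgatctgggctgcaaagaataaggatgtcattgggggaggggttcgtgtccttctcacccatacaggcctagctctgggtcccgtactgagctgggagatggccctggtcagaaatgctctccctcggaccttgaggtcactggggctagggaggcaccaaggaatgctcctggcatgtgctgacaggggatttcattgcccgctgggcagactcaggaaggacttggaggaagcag
Wt1: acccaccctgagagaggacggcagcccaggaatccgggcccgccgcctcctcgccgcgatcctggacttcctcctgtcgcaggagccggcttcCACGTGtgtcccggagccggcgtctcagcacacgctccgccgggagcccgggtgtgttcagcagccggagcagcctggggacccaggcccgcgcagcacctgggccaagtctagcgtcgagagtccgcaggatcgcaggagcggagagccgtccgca
Podxl: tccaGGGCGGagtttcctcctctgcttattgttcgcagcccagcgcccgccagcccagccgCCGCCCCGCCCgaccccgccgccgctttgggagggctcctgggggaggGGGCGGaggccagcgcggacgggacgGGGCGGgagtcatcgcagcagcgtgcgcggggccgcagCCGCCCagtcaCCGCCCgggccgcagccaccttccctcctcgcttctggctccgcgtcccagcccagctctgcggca
Cd2ap: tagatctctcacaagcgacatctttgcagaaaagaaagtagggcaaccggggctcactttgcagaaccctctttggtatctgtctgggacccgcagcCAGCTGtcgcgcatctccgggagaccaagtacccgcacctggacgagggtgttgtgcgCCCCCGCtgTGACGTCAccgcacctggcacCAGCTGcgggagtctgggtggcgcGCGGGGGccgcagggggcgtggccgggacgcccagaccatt

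Motifs known from podocyte and stress-response transcription factors were searched on both strands of these windows in all 7 genes and in 27457 promoters of the same length. The core of WT1 and EGR family sites, with the letters GCGTGGG, was in 0 of the 7 windows and in 3.88% of all promoters. A second form of such sites, with the letters GCGGGGG, was found in Cd2ap, with 2 matches, and in 8.48% of all promoters. The letters GGGCGG of the GC box were in Podxl, with 7 matches, and in Synpo, with 2, against 32.4% of all promoters, and 2 of the Podxl matches overlap by 1 base. A homeodomain core, with the letters TAATTA, was in 0 of the 7 windows and in 4.94% of all promoters. Likewise the forkhead letters GTAAACA were in 0 of the 7, against 3.25% of all promoters. For the AP-1 site, the letters TGACTCA were in 0 of the 7 as well, against 3.98% of all promoters. The cyclic AMP response element, TGACGTCA, was in Cd2ap and in 1.7% of all promoters. Of the E-boxes, the form CACGTG was in Wt1, against 5.79% of all promoters. Cd2ap held the form CAGCTG, with 2 matches, against 11.9% of all promoters. The Nphs1 window held none of these letters. A match is a run of letters and not a measured binding site. The windows were rich in G and C, at 57.2% for Nphs1, 71.6% for Wt1, 76.4% for Podxl and 64.4% for Cd2ap, against a median of 52% over all promoters.

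Podxl encodes podocalyxin, the charged sialomucin of foot processes, which blood vessel endothelium also makes. Probe set 1369895_s_at read 10.53 on the heparin array, 10.72 on the PPS array, 10.69 on the warm array and 10.20 on the cold array. The PPS and warm values were close together, and heparin lay between them and cold. Warm minus cold was 0.49 and PPS minus cold was 0.52. The suffix of this probe set marks probes that can match more than 1 transcript. Both other Podxl probe sets were below the floor on all 4 arrays.

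Ptpro encodes a receptor tyrosine phosphatase of the podocyte surface, also called GLEPP1. Its only probe set, 1368412_a_at, read 9.30 on the heparin array, 9.72 on the PPS array, 9.86 on the warm array and 9.09 on the cold array. As for Nphs1, PPS stood with warm and heparin stood nearer to cold. Warm minus cold was 0.77, heparin minus warm was -0.56 and heparin minus PPS was -0.42.

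Synpo encodes synaptopodin, which binds actin in foot processes and in the dendritic spines of neurons. Probe set 1388786_at read 10.46 on the heparin array, 10.50 on the PPS array, 10.82 on the warm array and 9.87 on the cold array. Both supplements lay at nearly the same level, between warm and cold. Warm minus cold was 0.95, short of the size limit, heparin minus warm was -0.36 and PPS minus warm was -0.32. Of its other probe sets, 1 was below the floor and 1 read 5.79 on every array, so neither gives a check.

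Cd2ap encodes an adaptor that ties nephrin to the actin skeleton and is made in many cell types besides podocytes. Its only probe set, 1379269_at, read 12.07 on the heparin array, 12.08 on the PPS array, 12.20 on the warm array and 11.96 on the cold array. It varied least of the 6, with 0.24 for warm minus cold and -0.13 for heparin minus warm. The order of the arrays was nonetheless that of Nphs1, Ptpro, Synpo and Wt1, with warm highest, then PPS, then heparin and cold lowest.

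That order held for 5 of the 6 genes. It was found in 5.63% of the 9166 genes above the floor on every array. All 6 were lowest on the cold array, as were 29.1% of those genes. The pairs with the most similar values over the 4 arrays were Synpo with Wt1 and Nphs1 with Ptpro. Their values, centred on each gene's mean, lay at a root mean square distance of 0.05 and 0.12 on the log2 scale. Nphs1 and Cd2ap were furthest apart, at 0.35.

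Warm minus cold asks what the warm oxygenated perfusion adds to cold storage. The median over the 6 genes was 0.86, or 1.81-fold, against 0.00 over all 9393 genes. Nphs1 and Wt1, 2 of the 6, were higher by at least 1 on the log2 scale, as were 2.48% of all genes. All 6 were higher by some amount, against 46% of all genes. Nphs1 lay above 97.8% of the genes, Wt1 above 97.6%, Synpo above 97.2%, Ptpro above 95.9%, Podxl above 91.1% and Cd2ap above 80.6%.

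The sign of this comparison depends on the scaling. The 24 poly-A control probe sets, bacterial transcripts added to the RNA, had a median of 7.47 to 7.67 on the heparin, PPS and warm arrays, against 6.41 on the cold array. With each array shifted by that median, warm minus cold over all genes had a median of -1.13 and the 6 genes had a median of -0.27, all negative, from -0.89 for Cd2ap to -0.07 for Nphs1. As deposited 233 genes were higher and 109 lower by at least 1, and after the shift 71 were higher and 6636 lower. The median of the 6 genes stood 0.86 above that of all genes, a distance that a shift of whole arrays leaves in place by construction. The 3' minus 5' difference of beta-actin probe sets, which grows as RNA degrades, was 3.39 on the heparin, 3.19 on the PPS and 3.22 on the warm array, against 2.79 on the cold array. The part of RNA quality in the result was not tested.

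**Figure D2:**
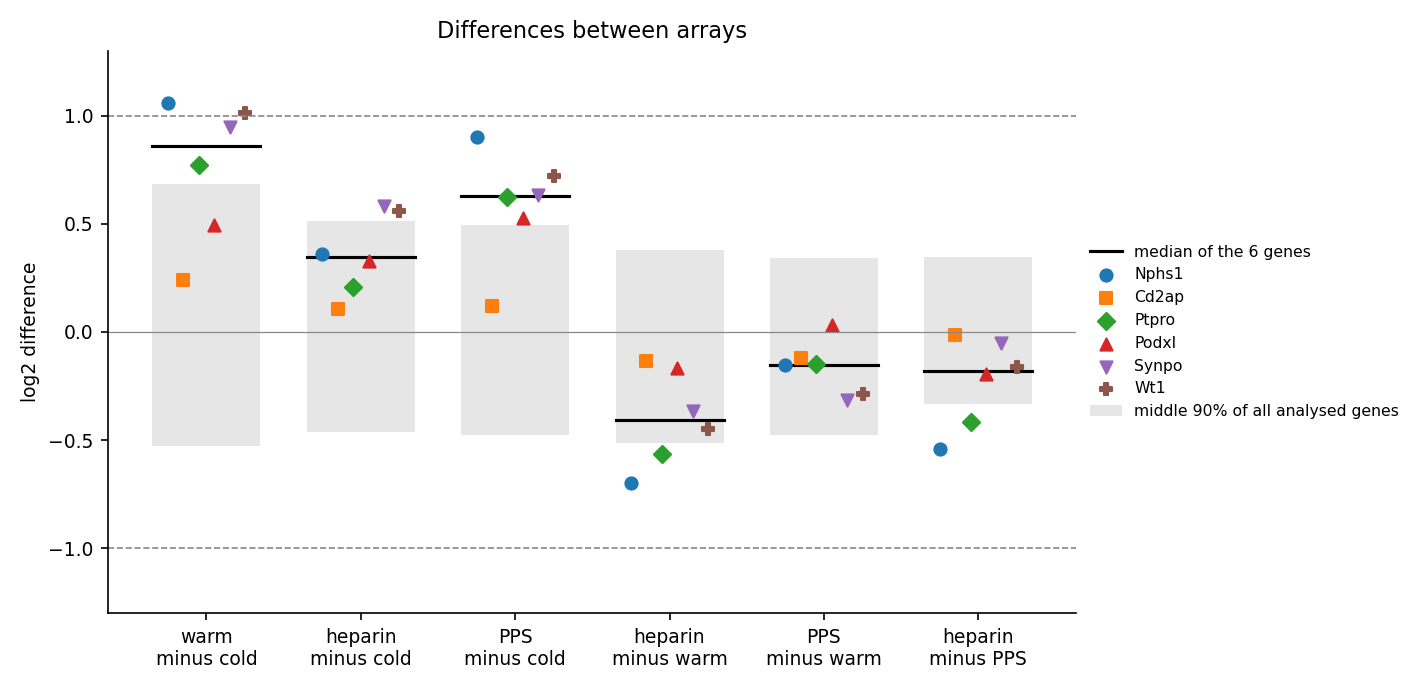
The log2 difference (y axis) of each of the 6 genes in the 6 comparisons between arrays (x axis), as deposited, with the median of the 6 as a black line, the middle 90% of all 9393 analysed genes as a grey bar and the 2-fold limits dashed. In warm minus cold the median of 0.86 and 4 of the 6 points lie above the grey bar, while in PPS minus warm all 6 points lie inside it.

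The heparin and PPS arrays were also set against the same cold array. Heparin minus cold had a median of 0.35 over the 6 genes, from 0.10 for Cd2ap to 0.58 for Synpo. All 6 were positive, as were 47.7% of all genes, and none was higher by at least 1, as were 1.17%. PPS minus cold had a median of 0.63, from 0.12 for Cd2ap to 0.90 for Nphs1, with all 6 positive, as were 45.3% of all genes. Again none was higher by at least 1, as were 1.03%. With the poly-A shift both medians turned negative, to -0.91 and -0.42, where the medians of all genes were -1.25 and -1.05. These comparisons share the cold array with warm minus cold, so they do not check it independently.

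Heparin minus warm asks what the supplement changes. It shares the single warm array with warm minus cold and PPS minus warm. A high value on that array raises warm minus cold and lowers both supplement comparisons, so these are not independent. All 6 genes were lower on the heparin array, as were 46.3% of all genes. The median was -0.41, from -0.70 for Nphs1 to -0.13 for Cd2ap. None of the 6 was lower by at least 1, as were 1.48% of all genes. Nphs1 lay above 2.78% of the genes and Ptpro above 4.19%.

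PPS minus warm was smaller for these genes. The median was -0.15, with 5 of the 6 lower, against 49.4% of all genes. Synpo (-0.32) and Wt1 (-0.29) had the largest differences, and Podxl differed by 0.03. None of the 6 was lower by at least 1, as were 1.71% of all genes.

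Heparin minus PPS had a median of -0.18, and all 6 genes were lower with heparin, against 43.5% of all genes. With the arrays shifted by the mean of 5 reference genes 4 of the 6 were lower, and Cd2ap (0.05) and Synpo (0.01) were above 0, as was Cd2ap by 0.001 after quantile normalization. Nphs1 (-0.54) and Ptpro (-0.42) stood apart from Podxl (-0.20), Wt1 (-0.16), Synpo (-0.05) and Cd2ap (-0.02). None of the 6 was lower by at least 1, as were 0.298% of all genes. PPS and heparin were given at the same nominal activity of 10 IU/ml, and with 1 array each the difference has no interval.

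The test run on the 4 arrays set the 3 arrays of warm-perfused kidneys against cold. By limma, with 2 residual degrees of freedom that also hold the supplement effects, 0 of the 6 genes passed an adjusted p of 0.05, as did 0.0106% of all genes. The adjusted p of the 6 ran from 0.257 for Podxl to 0.457 for Cd2ap. At an unadjusted p under 0.05 there were 3 of the 6, Podxl, Synpo and Wt1, as were 16.2% of all genes. The fitted log2 difference was 0.45 (SE 0.11) for Podxl, 0.72 (SE 0.19) for Synpo, 0.76 (SE 0.22) for Wt1 and 0.77 (SE 0.34) for Nphs1. Podxl thus had a smaller difference with a smaller error, because its 3 warm-perfused values were close together. The fit assumes for the single cold array the spread of the others.

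The lists of other podocyte genes had medians nearer to 0. Of 59 such genes in 4 lists, 43 were above the floor, with a warm minus cold median of 0.12. Their differences ran from -0.91 for Tcf21 to 1.12 for Fyn. The arrays hold whole-kidney RNA, so values of listed genes that other cells also make cannot be assigned to podocytes. For 26 of the 43 the difference was positive, against 46% of all genes. Of the 43, 1 was higher by at least 1 and 0 were lower by that much, where 2.48% and 1.16% of all genes were. Heparin minus warm had a median of -0.04 over the 43, and none passed the limit, where 1.48% of all genes were lower and 0.383% higher by that much.

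Partners of the slit diaphragm had a warm minus cold median of 0.26 over 12 genes above the floor, of 17 listed. Fyn, a Src-family kinase that phosphorylates nephrin, read 7.86 on the heparin, 7.76 on the PPS, 8.10 on the warm and 6.98 on the cold array. Its warm minus cold difference of 1.12 was past the size limit, and was 0.85 with its probe sets averaged and -0.01 after the poly-A shift. Robo2, a guidance receptor that forms a complex with nephrin, read 6.13 on the heparin, 6.78 on the PPS, 6.63 on the warm and 5.70 on the cold array. Its PPS minus cold difference of 1.08 was past the limit, but was 0.03 after the poly-A shift and 0.05 with the floor at the 60th percentile of all values. Like Nphs1, it was lower with heparin than with PPS, by -0.65. Fyn, by contrast, was at a similar level with either supplement. Kirrel2 and Magi2 have no probe set analysed here, and Kirrel3 and Pard3 were below the floor on all 4 arrays.

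Genes of the podocyte cytoskeleton had a warm minus cold median of 0.09 over 12 genes, and none was past the limit. Nes, which encodes the intermediate filament nestin, had the largest difference, 0.95, and read 7.38 on the heparin, 7.75 on the PPS, 7.87 on the warm and 6.92 on the cold array. Over 16 genes of podocyte matrix, adhesion and secreted proteins the median was 0.20, led by Sema3g, a secreted semaphorin, at 0.91. Only 3 transcription factors of 8 listed were above the floor, with a median of -0.17. The lowest was Tcf21, a factor of podocytes and of interstitial stroma, at -0.91, so it went against Wt1.

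**Figure D3:**
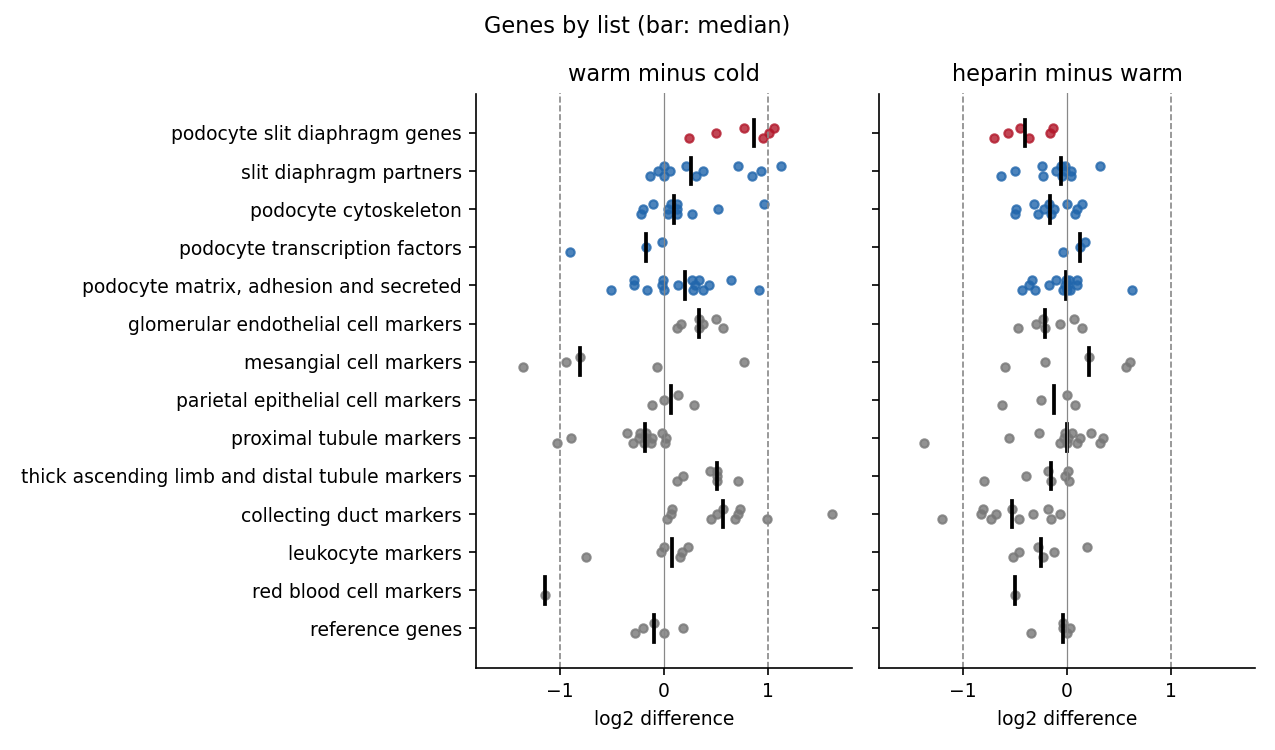
The log2 difference (x axis) of each gene in warm minus cold (left) and heparin minus warm (right), by gene list (rows), with 1 point per gene above the floor, a black bar at each list's median and dashed lines at 2-fold. The 6 podocyte slit diaphragm genes (top row) have medians of 0.86 and -0.41, and collecting duct markers (0.57 and -0.53) lie on the same sides of 0.

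Markers of other kidney cells also differed between the arrays. Their signs are those of the deposited scale, and after the poly-A shift the warm minus cold medians of the other podocyte lists and of every marker list were negative, at -0.56 for the collecting duct and -0.79 for the endothelium. All 11 collecting duct markers above the floor were higher on the warm than on the cold array (median 0.57), against 46% of all genes. In heparin minus warm all 11 were negative (median -0.53), against 46.3% of all genes. The largest was the water channel Aqp4, at 1.61 for warm minus cold (0.49 after the poly-A shift) and -1.20 for heparin minus warm. In PPS minus warm all 11 were negative as well, against 49.4% of all genes, with a median of -0.48 and Aqp4 at -1.28. These comparisons share the single warm array, so they are not independent. The summed level of the 12 listed markers, on the linear scale, was 27781 on the heparin, 25513 on the PPS, 34316 on the warm and 27466 on the cold array. Elf5 was below the floor throughout. All 7 markers of the ascending limb and distal tubule were higher in warm than in cold kidneys too (median 0.50), led by the sodium chloride cotransporter Slc12a3 (0.71).

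Markers listed for glomerular endothelial and for mesangial cells took different directions. In whole-kidney RNA these values cannot be placed within the glomerulus. The 7 endothelial markers above the floor were all higher on the warm than on the cold array, against 46% of all genes. Their median was 0.34, and Plat, the tissue plasminogen activator, was the largest at 0.56. Their summed level was 11286 on the heparin, 10821 on the PPS, 13521 on the warm and 10316 on the cold array, and Ehd3, a marker of glomerular endothelium, was below the floor. Of 5 mesangial markers 4 were lower in warm than in cold kidneys (median -0.81). Pdgfrb, a growth factor receptor that other pericytes and fibroblasts share, differed by -1.35, or by -0.57 with the floor at the 60th percentile, and Itga8 and Des were below the floor. Parietal epithelial markers had a median of 0.07 over 4 genes, with Pax2 the largest at 0.29.

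Proximal tubule markers were lower on the warm than on the cold array in 12 of 14 cases, against 50.7% of all genes, with a median of -0.19. The lactate transporter Slc5a12 differed by -1.03 (-0.95 with the arrays shifted by reference genes). In heparin minus warm the median of the 14 was 0.00, with 7 higher and 7 lower. There the anion transporter Slc22a7 differed by -1.37, from low values of 5.22 on the heparin and 6.59 on the warm array. The summed level of the 14 markers was 263184 on the heparin, 274211 on the PPS, 263290 on the warm and 293083 on the cold array. In warm minus cold, leukocyte markers had a median of 0.08 over 6 genes. Cd14, which was below the floor on the warm array, differed by -0.75 in that comparison when set at the floor. Hbb, a haemoglobin chain, differed by -1.14 in warm minus cold. The part of tissue makeup in the podocyte result was not tested.

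Genes outside the lists had values much like the 6. The nearest to their mean, by root mean square distance over the 4 arrays among 9166 genes, were Anxa3, an annexin (0.02), Cpt1b, a carnitine palmitoyltransferase (0.03), Cav2, a caveolin (0.04), Luzp1, a leucine zipper protein (0.04), and Cdh1, the epithelial cadherin (0.04). Anxa3 read 8.84 on the heparin, 9.10 on the PPS, 9.26 on the warm and 8.55 on the cold array. Of the 6 genes themselves, Ptpro lay nearest to the mean at 0.07, and 43 other genes were nearer. Nearest to Nphs1 were Prdm16, a zinc finger transcription factor (0.05), Nes (0.08) and Ift74, a protein of the ciliary transport complex (0.09). With 4 arrays many genes can share such values.

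**Figure D4:**
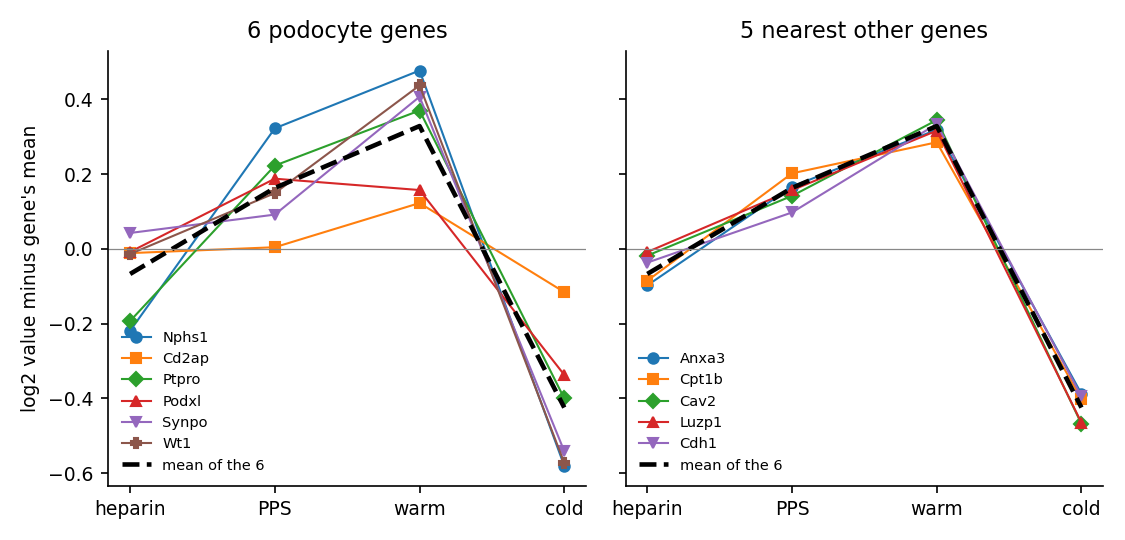
The log2 value minus the gene's mean over the 4 arrays (y axis) on the heparin, PPS, warm and cold array (x axis), for the 6 podocyte genes (left) and the 5 nearest other genes (right), with lines joining the values of a gene and the mean of the 6 dashed. The 5 other genes lie within 0.04 of the dashed line in root mean square distance, closer than any of the 6, of which Cd2ap is the flattest.

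**Figure D5:**
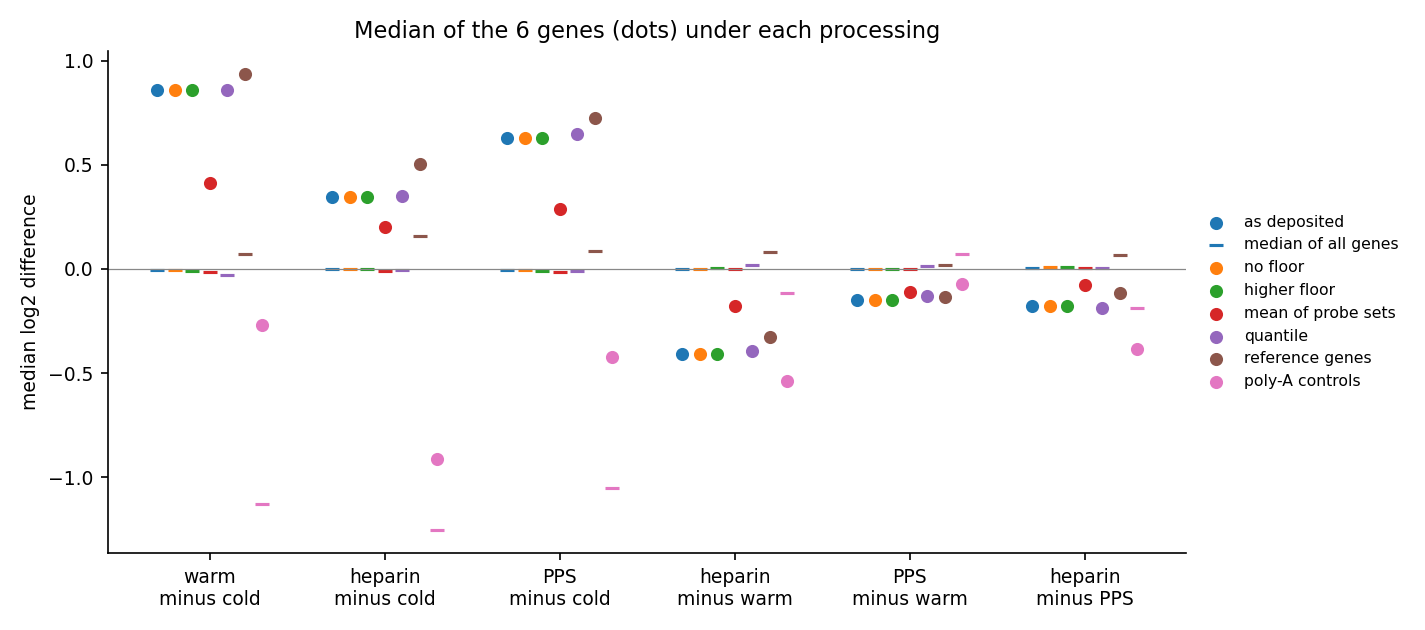
The median log2 difference of the 6 genes (dots, y axis) in the 6 comparisons (x axis) under each processing, with the median of all genes under the same processing as a dash. The shift by poly-A controls moves dots and dashes together in comparisons with cold, to -0.27 and -1.13 for warm minus cold, and averaging all probe sets brings the dots nearer to 0.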

How the data were processed

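RNA pools of 3 kidneys per group were labelled from 6 ug of total RNA by the standard Affymetrix protocol, per the labels' protocols. The authors deposited 1 log2 value per probe set and array. GCRMA, a background correction and normalization, is named in the submitters' processing notes without a version. No header states the scale, and log2 was taken from the range of 2.11 to 16.4. GCRMA makes the arrays' distributions nearly alike, so a change in total mRNA would not be seen. The number of arrays limits the precision.

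Of 31099 probe sets, 57 controls and those with several symbols were left out. Entrez identifiers were used to update symbols to RefSeq's GRCr8 annotation. Values below the floor, the 50th percentile, were raised to it. Of 14217 genes, 9393 were above it on at least 1 array. A log2 difference of at least 1 counted as higher or lower. limma 3.58.1 (R 4.3.3; lmFit, eBayes, two-sided, Benjamini-Hochberg over 9393 genes) was tested on simulated data. The members and lists were chosen with earlier results of these data known. Besides the 6 genes, genes named are those past 2-fold, the largest warm minus cold difference of each list and the nearest by distance.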

Additional observations from a re-analysis of the deposited data

Results flagged for a closer look

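Podxl was the only 1 of the 6 genes whose differences from the warm array had opposite signs with the supplements, -0.17 for heparin minus warm and 0.03 for PPS minus warm. Its heparin minus PPS difference was -0.20. With 1 array per group this difference was not tested.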

How the results depend on the processing

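There were no replicate arrays, so none could be left out within a group. No paired analysis was possible because each group is 1 array. Removing the floor, or raising it to the 60th percentile, left the counts and medians over the 6 genes the same. For warm minus cold, the number of the 6 genes past 2-fold was 2 as reported, 3 after the shift by 5 reference genes (with Synpo), 1 after quantile normalization, 0 with all probe sets of a gene averaged, 0 after the poly-A shift and 4 at a limit of 1.5-fold, a limit that 10.9% of all genes passed. At 1.5-fold it was 4 for PPS minus cold and 1 for heparin minus warm (6.69% and 5.6% of all genes), and after the poly-A shift it was 2 for heparin minus cold, both lower. Averaging probe sets, which mixes in those at background, gave medians of 0.41 for warm minus cold, 0.20 for heparin minus cold, 0.29 for PPS minus cold, -0.18 for heparin minus warm and -0.075 for heparin minus PPS. The shift by 5 reference genes gave 0.50 for heparin minus cold. The poly-A shift reversed the medians of warm, heparin and PPS minus cold to -0.27, -0.91 and -0.42. It turned warm minus cold negative for all 6 genes, Nphs1 (-0.071), Wt1 (-0.12), Synpo (-0.18), Ptpro (-0.36), Podxl (-0.63) and Cd2ap (-0.89), and for Fyn (-0.010), and gave -0.54 for heparin minus warm and -0.39 for heparin minus PPS. By limma 0 of the 6 genes were called under each of the 7 alternatives, including leaving out the warm, heparin or PPS array in turn (from 0 to 0), with unadjusted p under 0.05 for 0 to 3 of them. Over all genes limma called 0 higher and 1 lower of 9393, and with no filter on low values it called 60 higher and 183 lower of 14217, while the other 6 alternatives called 0. The mesangial median of heparin minus warm was 0.21 as deposited, -0.11 with the floor at the 60th percentile and -0.21 with probe sets averaged.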
